A study of Homo sapiens with 10 samples.

Results

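The genes described here encode YAP, TAZ and their DNA-binding partners, with 4 of their best known targets. YAP1 encodes the coactivator YAP and WWTR1 its relative TAZ, TEAD1, TEAD2, TEAD3 and TEAD4 encode the TEAD factors, and CTGF, CYR61, ANKRD1 and AMOTL2 are the targets. They were taken by symbol from the table of reads per gene, 10 of 23228 genes listed. All 10 passed the filter on low counts, which left 14761 genes for testing. The genes were named with earlier results from these libraries known, and are not an independent choice.

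RNA was sequenced from RD cells, a line grown from a human embryonal rhabdomyosarcoma and known to carry an activating mutation of NRAS. Cells received NRAS siRNA 1 or NRAS siRNA 2 at 10 nM and were collected at 48 h, against a nonspecific siRNA given by the same lipid transfection at the same dose and time. Other cells received the ERK1 and ERK2 kinase inhibitor SCH772984 at 300 nM for 24 h, against DMSO, its vehicle, for 24 h and without transfection. Each of these 5 groups held 2 libraries, 10 in all, and every group shared the line and its serum-containing medium. The model is thus 1 cell line, and the labels do not say whether the libraries of a group came from separate cultures. A p-value here therefore measures spread among libraries that may be technical in origin.

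Libraries held 23224063 to 30768970 counts on genes, and levels are given as CPM, the count of a gene scaled by the TMM-adjusted size of its library. NRAS stood at 52.4 and 52.2 CPM with siRNA 1 and at 51.0 and 48.0 CPM with siRNA 2, against 219.7 and 272 CPM with nonspecific siRNA. NRAS was at 235 and 279 CPM with the ERK inhibitor, against 269 and 282 CPM in DMSO. DUSP6, a phosphatase gene induced by ERK activity, was at 13.5 and 9.28 CPM with the inhibitor, against 292 and 265 CPM in DMSO. It was at 96.7 and 99.8 CPM with siRNA 1 and at 101 and 108 CPM with siRNA 2, against 272 and 206 CPM with nonspecific siRNA. Of the muscle lineage markers, DES (520 to 928 counts), PAX3 (258 to 393 counts) and MEF2C (781 to 1374 counts) were present in every library. MYOD1 had 0 to 5 counts, MYOG 0 to 3, PAX7 1 to 6 and MYF5 0 in every library, so that the defining myogenic factors were at or near 0. RD is usually described as expressing MYOD1 and MYOG, and these counts go against that description. CHRNA1, also on the list, had 1 to 20 counts. Of the 8 muscle markers 4 were tested. Of these 1 fell with the inhibitor and 1 with the mean of both siRNAs, beside 28.0% and 7.95% of all genes. The lowest log2 changes of the 4 were -3.45 and -1.88. The summed muscle markers were at 90.9 to 94.1 CPM with the inhibitor, against 65.5 to 82.6 CPM in DMSO. They were at 63.5 to 74.2 CPM for siRNA 1 and 71.9 to 84.4 CPM for siRNA 2. Nonspecific siRNA gave 62.2 to 74.0 CPM. The summed endothelial markers were at 2.01 to 2.74 CPM with the inhibitor, against 4.71 to 5.19 CPM in DMSO. They were at 2.92 to 3.46 CPM for siRNA 1 and at 3.43 to 4.45 CPM for siRNA 2, against 6.05 to 6.58 CPM for nonspecific siRNA. Of the 4 markers 2, KDR and TIE1, passed the filter and were tested. At an adjusted p under 0.05 these 2 fell with the inhibitor and 1 with the mean of both siRNAs, beside 28.0% and 7.95% of all genes. TIE1 made up most of the sums, at 1.67 to 6.04 CPM. KDR had 0 to 15 counts, CDH5 1 to 10 and PECAM1 0 to 4, so that these were at or near 0. The part of endothelial markers in the results was not tested. The summed leukocyte markers lay between 0.114 and 0.392 CPM.

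YAP and TAZ have no DNA-binding domain of their own and act on genes through TEAD factors. The Hippo kinases MST and LATS phosphorylate YAP and TAZ, which keeps them in the cytoplasm and leads to their breakdown, so that much of the control of the pathway lies in protein rather than in mRNA. In mice, active YAP in activated satellite cells of muscle gives tumours that resemble embryonal rhabdomyosarcoma. The present data are levels of mRNA and do not show where the proteins are or how active they are.

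TEAD factors bind the letters GGAATG, and the stretches before the starts of 3 targets are shown because they hold these letters. The sequences are those of RefSeq on GRCh38.p14, all on the minus strand and written 5′ to 3′, with each GGAATG, or CATTCC where it lies on the other strand, in capitals. Positions are counted back from the RefSeq start, with -1 as the base before it. The CTGF stretch and the first of ANKRD1 lie upstream of every exon of the gene in GENCODE 29. The second of ANKRD1 and that of AMOTL2 do not, and are 30 bases around a match past the first base of such an exon. The counts themselves were made on hg19, and no coordinate was carried between the builds.
CTGF, chr6:131951374-131951622: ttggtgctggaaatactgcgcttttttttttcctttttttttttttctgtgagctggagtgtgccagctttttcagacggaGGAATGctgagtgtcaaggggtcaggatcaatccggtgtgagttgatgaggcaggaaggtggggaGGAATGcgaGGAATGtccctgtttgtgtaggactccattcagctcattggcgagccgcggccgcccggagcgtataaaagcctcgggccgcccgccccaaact
ANKRD1, chr10:90921277-90921337: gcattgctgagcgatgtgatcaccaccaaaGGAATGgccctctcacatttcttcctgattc
ANKRD1, chr10:90921198-90921227: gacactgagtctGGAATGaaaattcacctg
AMOTL2, chr3:134374499-134374528: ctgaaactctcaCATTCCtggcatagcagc

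In the 250 bases before the start, CTGF held GGAATG at positions -169, -104 and -95, all on its own strand. ANKRD1 held it at -220 and -128, and AMOTL2 held CATTCC at -69 before 1 of its 2 listed starts. YAP1 held it once, at -162, and no match was found in the windows of WWTR1, TEAD2 and TEAD3. Of the members, 7 had promoter entries, and CYR61, TEAD1 and TEAD4 had none. Searched on both strands over 35116 windows of the same length, GGAATG occurred at least once in 11.9%, at least 2 times in 0.94% and at least 3 times in 0.0826%. The AP-1 letters TGANTCA occurred in 6.57% of windows and, among the members, in ANKRD1 at -195, without overlap with GGAATG. A CArG box, the site of SRF, occurred in 1.16% of windows and in no member's window. These matches describe letters and not bound sites.

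After the ERK inhibitor, CTGF and AMOTL2 rose and WWTR1 fell, while CYR61 and ANKRD1, which belong to the same textbook set of targets, were not called. After NRAS knockdown CYR61 fell, and CTGF and AMOTL2 were not called. A direct test of the difference between both responses, given below, was passed by WWTR1, CTGF and AMOTL2 but not by CYR61. A gene was called where its adjusted p was under 0.05 in the quasi-likelihood test of edgeR, after Benjamini-Hochberg adjustment over 14761 genes, and every adjusted p below is of this test. With the ERK inhibitor 3 of the 10 genes were called, 2 higher and 1 lower, against 28.0% of all genes tested. With siRNA 1 none of the 10 was called, against 2.07% of all genes, and with siRNA 2 it was 1 of 10, CYR61, against 6.43%. With the mean of both siRNAs it was again CYR61 alone, 1 of 10, against 7.95%. At an unadjusted p under 0.05 siRNA 1 gave 2590 genes, and DESeq2 called 1 of the 10 genes there. The share called among the 10 genes was thus close to the share of all genes with the inhibitor. The median log2 fold change of the 10 genes was -0.016 with the inhibitor and -0.061 with the mean of both siRNAs, beside 0.00070 and -0.0054 for all genes. In bulk RNA of this kind, fewer cells with a transcript and less of it per cell cannot be told apart.

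**Figure D1:**
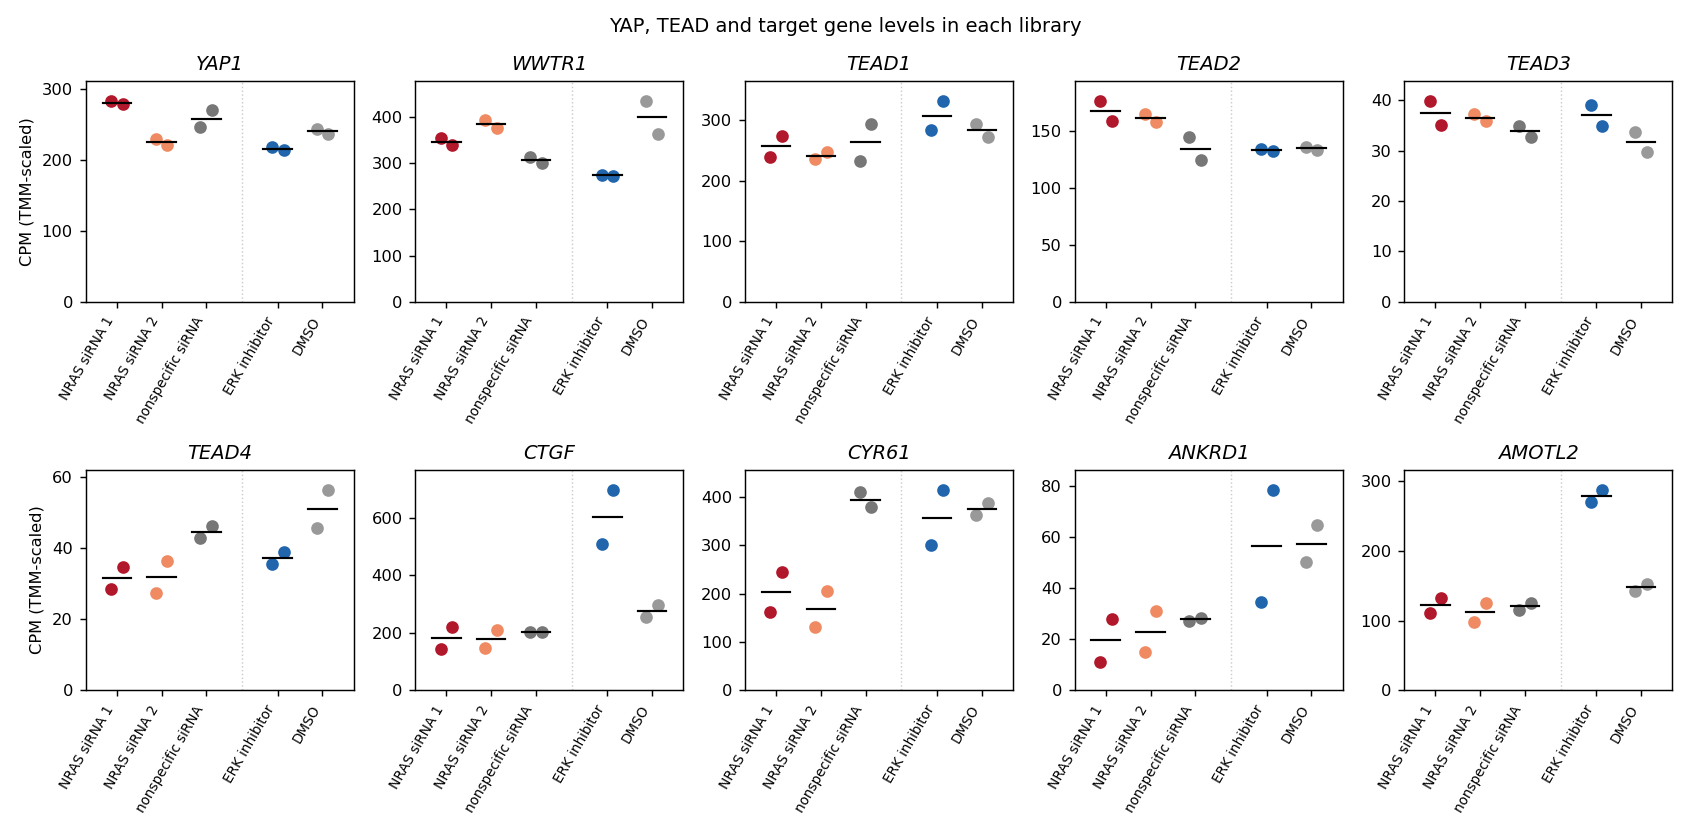
Level of each of the 10 genes in each library, in TMM-scaled CPM on linear axes from 0, by group; points are libraries and bars are the means of the 2 libraries. The 2 ERK inhibitor libraries stand above all others for CTGF (510 and 696 CPM) and AMOTL2 (270 and 288 CPM), and the 4 NRAS siRNA libraries stand below all others for CYR61 (131 to 244 CPM).

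**Figure D2:**
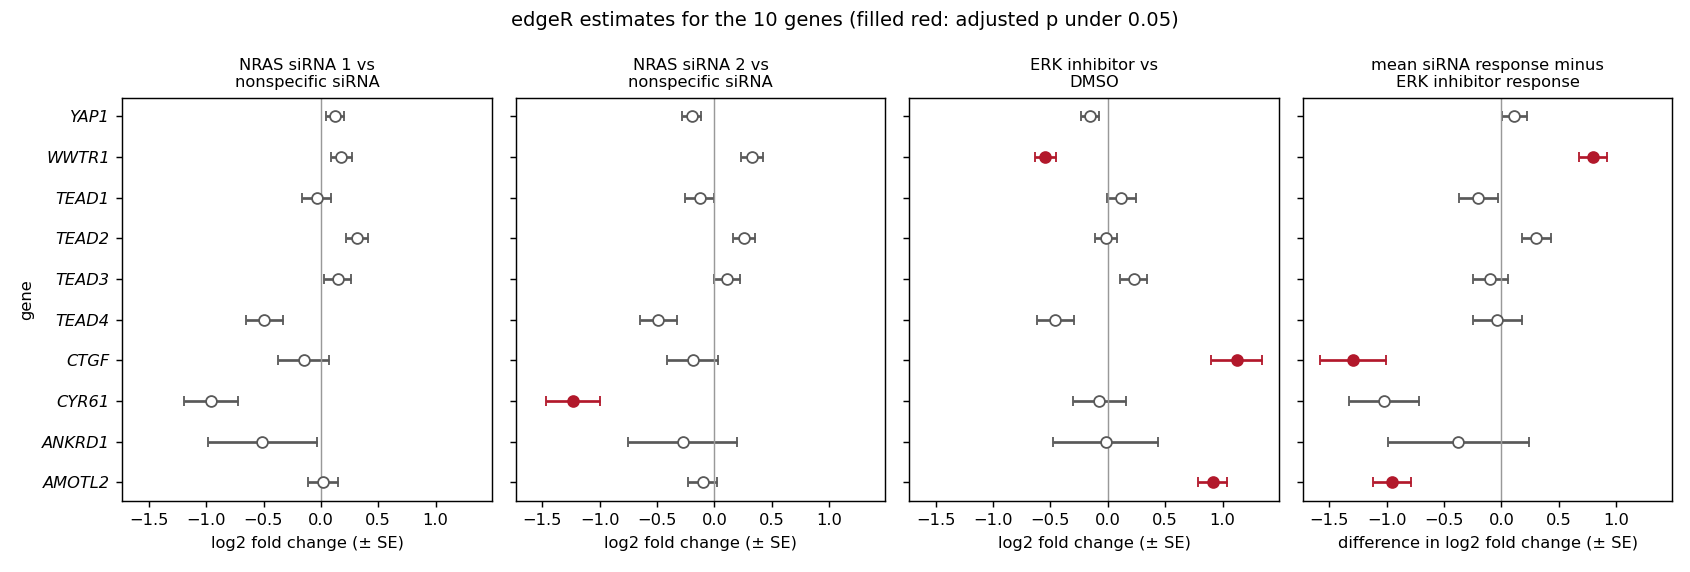
Log2 fold change of each gene with its standard error in 3 comparisons, and in the last panel the difference between the mean siRNA response and the inhibitor response, from 1 edgeR fit. Filled red points have an adjusted p under 0.05: CYR61 with siRNA 2 (-1.23), WWTR1 (-0.55), CTGF (1.12) and AMOTL2 (0.91) with the inhibitor, and WWTR1, CTGF and AMOTL2 in the difference.

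Of the coactivators, WWTR1 changed with the ERK inhibitor and YAP1 was not called in any comparison. WWTR1 stood at 275 and 272 CPM with the inhibitor, against 435 and 364 CPM in DMSO. Both inhibitor libraries were below both DMSO libraries, as for 33.9% of all genes, and were the lowest of the 10. The log2 fold change was -0.55 (SE 0.094, adjusted p = 0.00237), a level 0.685 times that in DMSO with a 95% interval of 0.593 to 0.792. With siRNA 1 WWTR1 was at 354 and 340 CPM and with siRNA 2 at 393 and 377 CPM, against 314 and 300.1 CPM with nonspecific siRNA. All 4 knockdown libraries were above both controls, as for 16.2% of all genes, and the mean log2 difference of 0.25 was not called (SE 0.082, adjusted p = 0.0840).

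YAP1 was at 283 and 279 CPM with siRNA 1 and at 230.05 and 221 CPM with siRNA 2, against 246 and 271 CPM with nonspecific siRNA. The 2 NRAS siRNAs thus lay on opposite sides of the control libraries. Over all genes, 22.0% lay wholly above these controls with siRNA 1 and 29.1% wholly below with siRNA 2. Between siRNA 1 and siRNA 2 the log2 difference of YAP1 was 0.32 (SE 0.080, adjusted p = 0.259), and none of the 10 genes was called in that comparison, against 0.427% of all genes. That comparison gave 881 genes at an unadjusted p under 0.05, and DESeq2 also called none of the 10. With the inhibitor YAP1 was at 219 and 214 CPM, against 244 and 237 CPM in DMSO, a log2 difference of -0.15 that was not called (SE 0.080, adjusted p = 0.178). Per kb of exon, WWTR1 made up 56.9 to 57.2% of the sum of YAP1 and WWTR1 with the inhibitor, against 61.7 to 65.1% in DMSO. It made up 56.2 to 56.7% with siRNA 1 and 64.2% in both libraries with siRNA 2, against 53.8 to 57.2% with nonspecific siRNA. TAZ transcripts per length were thus the more abundant of the pair in every library.

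No TEAD gene was called in any comparison by the test without a covariate, although some alternative settings called TEAD2 or TEAD4. TEAD4 came nearest, with lower values in all 6 treated libraries than in the controls of the same experiment. Taken singly, this held for 19.3% of all genes with both siRNAs and for 33.9% with the inhibitor. It was at 28.6 and 34.9 CPM with siRNA 1 and at 27.4 and 36.4 CPM with siRNA 2, against 43.0 and 46.3 CPM with nonspecific siRNA. With the inhibitor it was at 35.6 and 39.0 CPM, against 45.8 and 56.5 CPM in DMSO. Its log2 difference was -0.49 for the mean of both siRNAs (SE 0.14, adjusted p = 0.0544) and -0.46 for the inhibitor (SE 0.16, adjusted p = 0.0575), and both missed the threshold. Of the 17 alternative settings, 7 called TEAD4 lower with the inhibitor and 4 with the mean of both siRNAs.

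TEAD2 was at 176 and 159 CPM with siRNA 1 and at 164 and 157 CPM with siRNA 2, against 144 and 124 CPM with nonspecific siRNA. All 4 knockdown libraries were above both controls, as for 16.2% of all genes. The mean log2 difference of 0.29 was not called (SE 0.084, adjusted p = 0.0619), while 3 of the 17 alternative settings called it. With the inhibitor TEAD2 was at 134 and 132 CPM, against 136 and 133 CPM in DMSO, and these overlapped. TEAD1 ranged from 233 to 332 CPM and TEAD3 from 29.6 to 39.8 CPM over the 10 libraries, with log2 differences in the siRNA and inhibitor comparisons between -0.13 and 0.23. Per kb of exon, TEAD2 was the most abundant TEAD gene, with 40.4 to 54.4% of the summed TEAD level over the 10 libraries, and TEAD3 the least, with 8.11 to 11.4%. TEAD4 held 13.2 to 16.2% with siRNA 1 and 13.3 to 17.2% with siRNA 2, against 20.9 to 22.4% with nonspecific siRNA. It held 17.4 to 18.3% with the inhibitor, against 21.4 to 26.1% in DMSO. By group means per kb the order was TEAD2, TEAD1, TEAD4 and TEAD3. By CPM, not divided by length, TEAD1 was above TEAD2 in every library. The order of these 2 thus depends on the exon unions used, 9.270 kb for TEAD1 and 2.686 kb for TEAD2. TEAD1 and TEAD4 overlapped in DMSO, where TEAD1 held 24.6 to 26.7%, and with nonspecific siRNA, where it held 22.0 to 27.8%.

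CTGF encodes a secreted matricellular protein of the CCN family. It was at 510 and 696 CPM with the inhibitor, against 257 and 298 CPM in DMSO. Both inhibitor libraries were above every other library. Of all genes, 32.8% had both inhibitor libraries above both DMSO libraries. The log2 fold change was 1.12 (SE 0.22, adjusted p = 0.00494), 2.18 times the DMSO level with a 95% interval of 1.54 to 3.07. With siRNA 1 CTGF was at 145 and 222 CPM and with siRNA 2 at 147 and 210 CPM, against 204 and 203 CPM with nonspecific siRNA. In each knockdown group 1 library was below and 1 above the controls. The mean log2 difference was -0.17 (SE 0.19, adjusted p = 0.602).

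AMOTL2 encodes an angiomotin, a junction protein that binds YAP and holds it back. It was at 270 and 288 CPM with the inhibitor, against 143 and 153 CPM in DMSO. The inhibitor libraries were again the 2 highest of the 10. The log2 fold change was 0.91 (SE 0.13, adjusted p = 0.000802), 1.88 times the DMSO level with a 95% interval of 1.54 to 2.29. With siRNA 1 AMOTL2 was at 111 and 133 CPM and with siRNA 2 at 98.9 and 126 CPM, against 116 and 125 CPM with nonspecific siRNA. These overlapped, and the mean log2 difference was -0.042 (SE 0.11, adjusted p = 0.842). The inhibitor calls of WWTR1, CTGF and AMOTL2 were each made under all 17 alternative settings.

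CYR61 encodes another CCN protein and is usually listed beside CTGF as a direct target of YAP and TEAD. It was at 163 and 244 CPM with siRNA 1 and at 131 and 205 CPM with siRNA 2, against 409 and 378.5 CPM with nonspecific siRNA. All 4 knockdown libraries were below both controls, as for 19.3% of all genes, and were the 4 lowest of the 10. The log2 fold change was -1.09 for the mean of both siRNAs (SE 0.20, adjusted p = 0.0127), 0.469 times the control level with a 95% interval of 0.347 to 0.634. For siRNA 2 it was -1.23 (SE 0.24, adjusted p = 0.0190), and for siRNA 1 it was -0.95 (SE 0.23, adjusted p = 0.0695) and not called. With the inhibitor CYR61 was at 299.7 and 414 CPM, against 363 and 388 CPM in DMSO. The inhibitor libraries lay on either side of the DMSO libraries, with a log2 difference of -0.073 (SE 0.23, adjusted p = 0.845) and a 95% interval of 0.665 to 1.36 times the DMSO level.

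The call of CYR61 rested partly on single libraries. Without the first nonspecific library, the mean log2 change of CYR61 was -1.02 and its adjusted p 0.0875, and with siRNA 2 it was -1.16 (adjusted p = 0.0813). Without the first library of siRNA 2, CYR61 had a log2 change of -0.94 with that siRNA (adjusted p = 0.185).

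ANKRD1 encodes a cardiac ankyrin repeat protein found in nuclei and sarcomeres of striated muscle and induced by YAP in many cells. It was at 11.01 and 28.2 CPM with siRNA 1 and at 15.0 and 31.1 CPM with siRNA 2, against 27.2 and 28.6 CPM with nonspecific siRNA. With the inhibitor it was at 34.8 and 78.6 CPM, against 50.2 and 64.8 CPM in DMSO. In each treated group 1 library was below and 1 above or among the controls. The log2 difference was -0.39 for the mean of both siRNAs (SE 0.41, adjusted p = 0.571) and -0.019 for the inhibitor (SE 0.46, adjusted p = 0.981). Its 95% interval with the inhibitor was 0.486 to 2.00 times the DMSO level. On the log2 scale this was the widest of the 10 genes in that comparison. A change of the size seen for AMOTL2 lay within it. The epithelial marker KRT18 followed ANKRD1 most closely of 11224 genes searched over these 10 libraries (Pearson's r 0.978). This is the top match of a search and not a test. The summed level of the 5 epithelial markers was between 117 and 193 CPM for siRNA 1, and between 138 and 212 CPM for siRNA 2, against 191 to 215 CPM with nonspecific siRNA. It was 227 to 365 CPM with the inhibitor, against 234 to 349 CPM in DMSO. KRT18 made up most of these sums, at 106 to 335 CPM, with KRT8 at 8.69 to 27.4 CPM and EPCAM at 1.48 to 2.74 CPM. CDH1 was at 0 to 0.381 CPM and KRT19 at 0 to 0.0317 CPM, so that 2 defining epithelial markers were at or near 0. The part of KRT18-expressing cells in the spread of ANKRD1 was not tested.

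The difference between both responses was tested directly, as the mean log2 response to the siRNAs minus the log2 response to the inhibitor. Of the 10 genes, 3 differed, 1 with a higher and 2 with a lower siRNA response, against 7.30% of all genes. WWTR1 had a difference of 0.80 (SE 0.12, adjusted p = 0.00668), with a log2 change of 0.25 after knockdown and -0.55 after the inhibitor. CTGF had a difference of -1.29 (SE 0.29, adjusted p = 0.0289), with -0.17 after knockdown and 1.12 after the inhibitor. AMOTL2 had a difference of -0.95 (SE 0.17, adjusted p = 0.0115), with -0.042 after knockdown and 0.91 after the inhibitor. The interaction of WWTR1 and AMOTL2 was called under all 16 alternative settings and that of CTGF under 11. For CTGF the call was lost without either nonspecific library (adjusted p = 0.0717 and 0.0568), without the second inhibitor library (adjusted p = 0.0885) and without either DMSO library (adjusted p = 0.0949 and 0.0758). CYR61 had a difference of -1.02 that was not called (SE 0.31, adjusted p = 0.0735), while 5 of 16 alternative settings called it. By the main test the fall of CYR61 with the siRNAs is thus not shown to differ from its response to the inhibitor, and this depends on the setting. The 2 treatments differ in time, 48 h against 24 h, in transfection and in target, and these cannot be told apart.

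The 2 control groups bear on these comparisons. Between nonspecific siRNA and DMSO none of the 10 genes was called, against 0.379% of all genes, while 1713 genes had an unadjusted p under 0.05. DESeq2 called 1 of the 10, WWTR1, which 2 of 17 alternative settings called lower with nonspecific siRNA. WWTR1, CTGF, ANKRD1 and AMOTL2 had both nonspecific libraries below both DMSO libraries, as had 18.6% of all genes. YAP1 had both above, as had 19.0% of all genes. ANKRD1 stood at 27.2 and 28.6 CPM with nonspecific siRNA, against 50.2 and 64.8 CPM in DMSO, a log2 difference of -1.04 (SE 0.47, adjusted p = 0.432). WWTR1 had a log2 difference of -0.38 (SE 0.093, adjusted p = 0.121), CTGF of -0.45 (SE 0.22, adjusted p = 0.489) and AMOTL2 of -0.30 (SE 0.13, adjusted p = 0.401). CYR61 overlapped between the controls, with a log2 difference of 0.069 (SE 0.23, adjusted p = 0.952). Transfection and collection time differ together between these groups and cannot be told apart.

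CTGF and CYR61 were set against each other within each library, where the scaling of the library cancels. This ratio was chosen after the values were seen and is given as a description, with no test. CTGF had 1.70 and 1.68 counts per count of CYR61 with the inhibitor, against 0.706 and 0.768 in DMSO. The ratio was 0.891 and 0.909 with siRNA 1 and 1.12 and 1.02 with siRNA 2, against 0.498 and 0.5365 with nonspecific siRNA. Libraries of a group lay close together, and every treated group lay above its own controls. With the inhibitor the ratio moved with CTGF, and with the siRNAs it moved with CYR61. The counts behind it were 13401 and 20416 for CTGF and 7876 and 12148 for CYR61 with the inhibitor, against 5829 and 7849 for CTGF and 8257 and 10217 for CYR61 in DMSO.

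**Figure D3:**
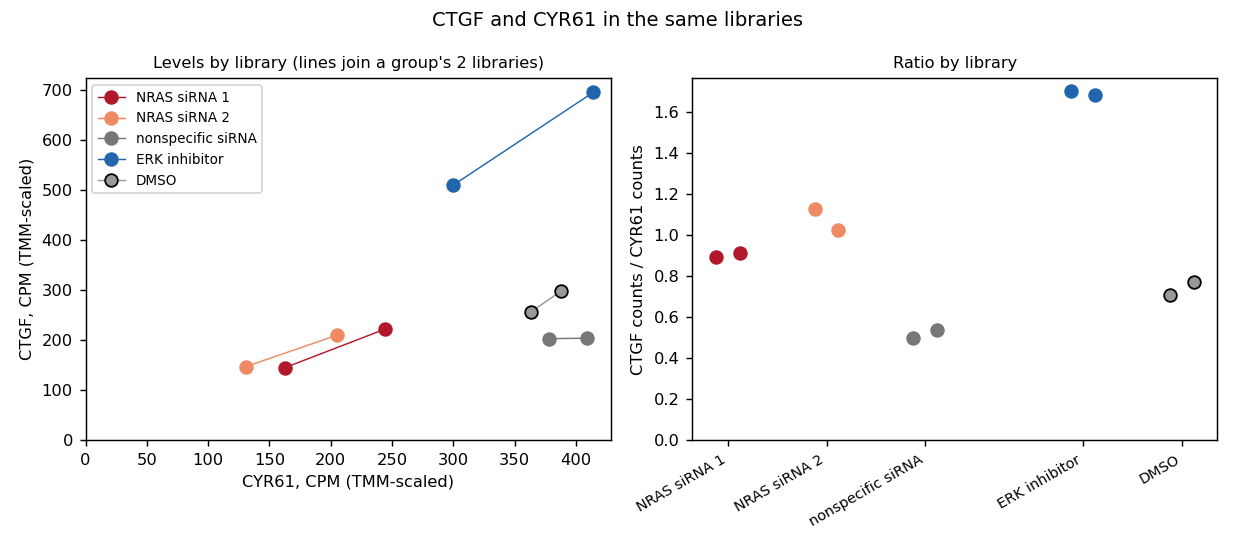
CTGF against CYR61 in each library in TMM-scaled CPM (left, lines join the 2 libraries of a group) and the ratio of their counts in each library (right, axis from 0). The inhibitor libraries hold the highest ratios, 1.70 and 1.68, and the nonspecific siRNA libraries the lowest, 0.498 and 0.5365.

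The 2 libraries of a group differed most for ANKRD1, CTGF and CYR61 with siRNA 1, siRNA 2 and the inhibitor. The log2 difference of the library numbered 2 minus that numbered 1 was 1.35, 1.05, 0.069, 1.18 and 0.37 for ANKRD1 with siRNA 1, siRNA 2, nonspecific siRNA, the inhibitor and DMSO. For CTGF these differences were 0.62, 0.51, -0.0060, 0.45 and 0.22, and for CYR61 they were 0.59, 0.65, -0.11, 0.47 and 0.094. YAP1 differed by -0.059 to 0.14 and WWTR1 by -0.26 to -0.016 over the 5 groups, and AMOTL2 by 0.093 to 0.35. In nonspecific siRNA the difference of YAP1, 0.14, was wider than that of any of the 4 targets, and in DMSO that of WWTR1, -0.26, was exceeded among them by ANKRD1 alone. Over all genes tested, 23.3% had 1 sign of this difference in all 5 groups, as WWTR1, TEAD2, TEAD3, TEAD4, ANKRD1 and AMOTL2 did.

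**Figure D4:**
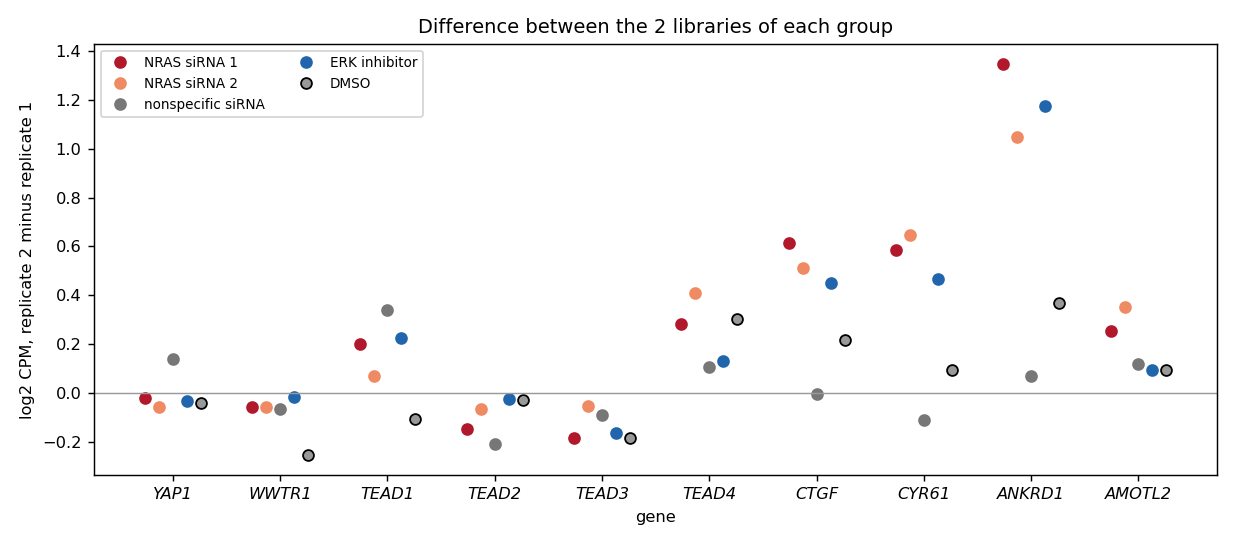
Difference in log2 CPM between the 2 libraries of each group for each of the 10 genes, 1 point a group. ANKRD1 has the widest differences, up to 1.35 with siRNA 1, and YAP1 stays between -0.059 and 0.14.

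Beyond these 4 targets, 18 other genes listed as YAP and TAZ targets in human cells were looked up, and all 18 were tested. With the inhibitor 7 of them rose and 5 fell, with a median log2 change of 0.13, beside 28.0% called and a median of 0.00070 over all genes. Without the second DMSO library 7 of the 18 were called. With the mean of both siRNAs 2 rose and 2 fell, with a median of -0.074, beside 7.95% called over all genes. Without the first library of either NRAS siRNA, without either nonspecific library, or with only the groups compared in the fit, 1 was called.

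TGFB2, which encodes a TGF-beta ligand, was at 175 CPM in both libraries with the inhibitor, against 85.8 and 68.7 CPM in DMSO. It was at 125 and 100.5 CPM with siRNA 1 and at 141 and 102 CPM with siRNA 2, against 56.0 and 52.1 CPM with nonspecific siRNA. It rose after both treatments, by a log2 change of 1.18 with the inhibitor (SE 0.17, adjusted p = 0.000838) and 1.12 with the mean of both siRNAs (SE 0.15, adjusted p = 0.00413). CCDC80, a secreted matrix protein gene, also rose with the mean of both siRNAs, by 0.70 (SE 0.15, adjusted p = 0.0265), a call made under 12 of 17 alternative settings and lost without the first library of either NRAS siRNA or without either nonspecific library.

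GADD45A, a stress-induced growth arrest gene, was at 16.8 and 18.0 CPM with the inhibitor, against 43.3 and 48.7 CPM in DMSO, and fell by 1.40 on the log2 scale (SE 0.23, adjusted p = 0.00191). With the mean of both siRNAs it fell by 0.78 (SE 0.19, adjusted p = 0.0359), a call lost under 8 of 17 alternative settings, the fits without the first library of any siRNA group among them. F3, the gene of tissue factor, fell by 0.68 with the mean of both siRNAs (SE 0.17, adjusted p = 0.0416), a call lost under 9 of 17, these among them. NT5E, the gene of the surface nucleotidase CD73, was at 41.3 and 72.5 CPM with the inhibitor, against 145 and 182 CPM in DMSO, and fell by 1.52 (SE 0.35, adjusted p = 0.00974). Leaving out the first inhibitor library or the second DMSO library ended the call of NT5E.

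IGFBP3, which encodes a binding protein of insulin-like growth factors, was at 115.5 and 247 CPM with the inhibitor, against 63.5 and 89.8 CPM in DMSO, and rose by 1.24 (SE 0.36, adjusted p = 0.0269). It was at 33.4 and 51.8 CPM with siRNA 1 and at 36.8 and 50.1 CPM with siRNA 2, against 66.8 and 101 CPM with nonspecific siRNA, where it was not called. All knockdown libraries were below the controls, as for 19.3% of all genes, and all inhibitor libraries above theirs, as for 32.8%. The difference between both responses of IGFBP3 was -2.21 (SE 0.46, adjusted p = 0.0232). The inhibitor call of IGFBP3 was lost without the second inhibitor library or without either DMSO library. In all 4 of the 18 genes differed between both responses, beside 7.30% of all genes: IGFBP3, ARHGEF17 (-0.72), LATS2 (-0.53) and DOCK5 (0.65). Of 16 alternative settings, 12 made this call for IGFBP3, 13 for ARHGEF17, 7 for LATS2 and 10 for DOCK5, and each was lost without single libraries, the second DMSO library among them.

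**Figure D5:**
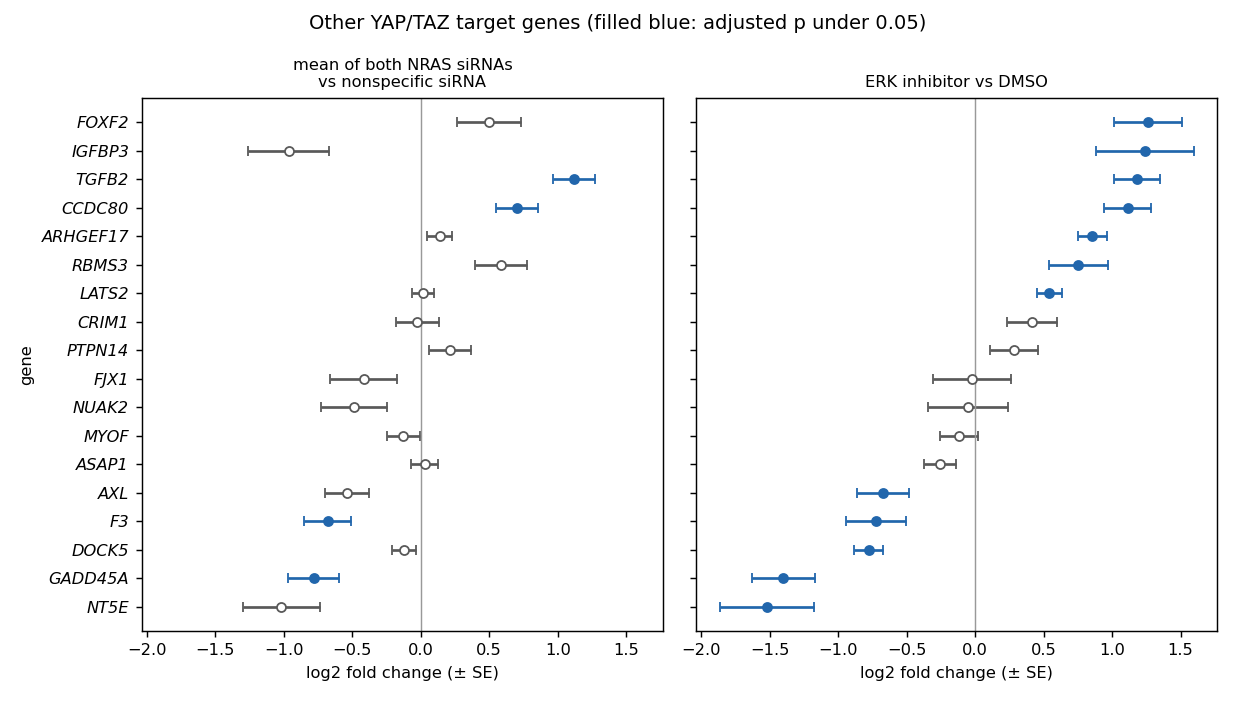
Log2 fold change with standard error of 18 other YAP and TAZ target genes for the mean of both NRAS siRNAs against nonspecific siRNA (left) and for the ERK inhibitor against DMSO (right), in order of the inhibitor response. Filled points have an adjusted p under 0.05, 4 on the left and 12 on the right, with calls in both directions in each panel.

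Upstream of YAP, 25 genes of the Hippo kinases and their regulators were tested, with AJUBA, MOB1A and MOB1B listed under older symbols. LATS2 and PTPN14 were also on the list of other targets above, so the counts of both lists are not separate. With the inhibitor 5 rose and 4 fell (median log2 change 0.11), beside 28.0% of all genes called. With the mean of both siRNAs 2 rose and none fell (median 0.016), beside 7.95%. FAT4, a giant cadherin whose Drosophila relative Fat acts upstream of the Hippo kinases, was at 498 and 494 CPM with the inhibitor, against 97.1 and 73.3 CPM in DMSO. It was at 284 and 203.5 CPM with siRNA 1 and at 285 and 203 CPM with siRNA 2, against 70.6 and 83.8 CPM with nonspecific siRNA. FAT4 rose by a log2 change of 2.54 with the inhibitor (SE 0.21, adjusted p = 3.24e-05) and 1.66 with the mean of both siRNAs (SE 0.19, adjusted p = 0.00182). Both FAT4 calls were made under all 17 alternative settings.

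AMOT, the relative of AMOTL2 that likewise binds YAP, was at 40.6 and 39.7 CPM with the inhibitor, against 14.2 and 12.9 CPM in DMSO. It rose by 1.56 (SE 0.17, adjusted p = 0.000194), and by 0.62 with the mean of both siRNAs (SE 0.15, adjusted p = 0.0383), a call made under 8 of 17 alternative settings. With the inhibitor JUB, the older symbol of AJUBA, whose LIM protein restrains LATS kinases, rose by 0.79 (SE 0.12, adjusted p = 0.00113). RASSF5, a partner of MST kinases, fell by 0.63 (SE 0.11, adjusted p = 0.00288). The difference between both responses was called for 4 of the 25 genes, all with the lower siRNA response, beside 7.30% of all genes (403 higher and 675 lower): AMOT (-0.94), JUB (-0.67), LATS2 (-0.53) and MAP4K4 (-0.44). These were called under 8, 9, 7 and 7 of 16 alternative settings, and each was lost without either inhibitor library.

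VGLL proteins compete with YAP and TAZ for TEAD factors, and of the 4 genes VGLL3 and VGLL4 were tested. VGLL4, a repressor of TEAD output, was at 78.0 and 75.5 CPM with the inhibitor, against 54.0 and 51.5 CPM in DMSO. It was at 73.5 and 75.3 CPM with siRNA 1 and at 75.4 and 81.9 CPM with siRNA 2, against 57.5 and 56.8 CPM with nonspecific siRNA. VGLL4 rose by 0.54 with the inhibitor (SE 0.088, adjusted p = 0.00175) and by 0.42 with the mean of both siRNAs (SE 0.077, adjusted p = 0.0136). Leaving out either nonspecific library ended the siRNA call of VGLL4. VGLL3 was at 10.7 and 16.0 CPM with the inhibitor, against 3.39 and 4.29 CPM in DMSO, a rise of 1.80 (SE 0.29, adjusted p = 0.00154). Its difference between both responses was -1.62 (SE 0.39, adjusted p = 0.0352), called under 10 of 16 alternative settings. Of the other CCN genes NOV and WISP1 were tested. Neither was called with siRNA 1, siRNA 2, their mean or the inhibitor, beside 2.07%, 6.43%, 7.95% and 28.0% of all genes. NOV was at 2.44 to 4.70 CPM and WISP1 at 0.0759 to 0.641 CPM, far below CTGF and CYR61. At its lowest WISP1 was below the level of 3 counts, 0.0952 to 0.132 CPM, so the lack of a call says little for it.

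SRF with its MRTF cofactors, and AP-1, share many targets with YAP and TEAD, and their genes were counted for that reason. Of 18 SRF, MRTF and actin-linked genes, 10 rose and 1 fell with the inhibitor (median 0.39), beside 28.0% of all genes called. With the mean of both siRNAs 2 fell (median -0.11), beside 7.95%. These were ZYX (-0.53) and TPM2 (-0.35), called under 12 and 8 of 17 alternative settings. ACTA2, smooth muscle actin, was at 12.7 and 25.9 CPM with the inhibitor, against 1.496 and 1.14 CPM in DMSO, and TAGLN at 39.6 and 69.7 CPM, against 6.38 and 6.45 CPM. The log2 changes were 3.88 for ACTA2 (SE 0.41, adjusted p = 0.000153) and 3.09 for TAGLN (SE 0.24, adjusted p = 2.43e-05). TPM1 rose by 1.45 (SE 0.17, adjusted p = 0.000321) and MYL9 by 1.41 (SE 0.12, adjusted p = 3.20e-05). The difference between both responses was called for 7 of these 18 genes, all with the lower siRNA response, beside 7.30% of all genes. The greatest were those of ACTA2 (-2.91), TAGLN (-2.46), MYL9 (-1.19) and TPM1 (-1.09). Of 7 AP-1 genes 2 were called with the mean of both siRNAs (median of the list -0.92), beside 7.95% of all genes. FOS and JUNB fell, by 0.92 (SE 0.18, adjusted p = 0.0168) and 1.02 (SE 0.22, adjusted p = 0.0249). Without the first nonspecific library neither was called. With the inhibitor 3 of the 7 were called, beside 28.0%. FOSL1 fell by 3.42 (SE 0.69, adjusted p = 0.00525, not called without the first inhibitor library) and FOS by 1.69 (SE 0.23, adjusted p = 0.000620), while JUND rose by 1.13 (SE 0.20, adjusted p = 0.00242). Among the 7, the difference between both responses was called for JUNB (-1.40) and JUND (-1.13), 2 of 7 beside 7.30% of all genes. Each was called under 10 of 16 alternative settings. The part of SRF or AP-1 in the levels of CTGF, CYR61, ANKRD1 and AMOTL2 was not tested.

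The genes whose log2 CPM followed each member most closely were sought among 11224 genes with a mean of at least 5 CPM, over the 10 libraries, which share their treatments, library preparation and scaling. For CTGF they were FSTL3 (Pearson's r 0.978, Spearman's rho 0.879), EDN1 (0.976 and 0.891) and MCAM (0.976 and 0.842). For AMOTL2 they were FSTL3 again (0.989 and 0.879), GADD45B (0.979 and 0.806) and DZIP1L (0.973 and 0.927). For CYR61 they were PFKFB3 (0.967 and 0.891), DHRS7B (0.965 and 0.903) and BAK1 (0.965 and 0.879). For ANKRD1 they were KRT18 (0.978 and 0.988), LEPREL1 (0.961 and 0.915) and PTRF (0.942 and 0.891). Of these nearest genes only FSTL3 was shared, by CTGF and AMOTL2, and the members themselves were left out of the search. Over the 10 libraries CTGF correlated at 0.606 with CYR61, 0.794 with ANKRD1 and 0.9815 with AMOTL2. With the means of the 5 groups removed, these values were 0.978, 0.993 and 0.901. With 2 libraries a group, these values rest on 1 difference in each of the 5 groups and not on 10 separate points. CYR61 and ANKRD1 thus moved with CTGF between the 2 libraries of a group. TEAD4 did so too (0.887), while TEAD3 moved the other way (-0.825). How many of all genes moved in this way was not counted.

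For WWTR1 the nearest genes were CNOT2 (0.952 and 0.939), ESD (0.907 and 0.915) and TDRD3 (0.906 and 0.915), and for YAP1 ZNF30 (0.915 and 0.915), DNAL1 (0.915 and 0.915) and TMED8 (0.904 and 0.927). FSTL3, a secreted activin-binding protein gene, rose with the inhibitor by 0.88 (SE 0.12, adjusted p = 0.000671), and EDN1, the endothelin gene, by 2.08 (SE 0.29, adjusted p = 0.000737). With the mean of both siRNAs neither was called. Both genes were picked for following CTGF or AMOTL2 in these same libraries, so their responses are a description and no separate evidence.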

How the data were processed

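Total RNA of RD cells was made into stranded mRNA libraries, per the labels' protocols. The authors deposited raw counts, whole numbers of reads for each gene. Per the submitters' processing notes the tools were HTSeq, SAMtools, TopHat2 and bcl2fastq, and the build hg19 (GRCh37). For versions, annotation and strand setting, nothing is given in the sources used here. Reads from genes that overlap, or lie antisense, cannot be told apart. In each library 5 category lines that name no gene, 38.3 to 39.4% of reads, were left out. At this depth 3 counts correspond to 0.0952 to 0.132 CPM.

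Groups came from the sample titles. Counts were tested with the quasi-likelihood test of edgeR 4.0.16 (R 4.3.3), with TMM scaling, filterByExpr at a minimum count of 10, 1 fit of 10 libraries with 5 residual degrees of freedom, no covariate, and Benjamini-Hochberg adjustment over 14761 genes at 0.05. Intervals are at 95% confidence. Alternatives were other scalings and filters, DESeq2 1.42.0, fits of only the groups compared, the replicate number as a block, and leaving out each library. Levels per kb used exon unions of GENCODE 29. Sequences are from RefSeq promoter entries, trimmed where GENCODE 29 places an exon, with 30 bases around a match inside one.

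The members and lists were chosen with earlier results of these data known. The rule for named genes took all members and the 3 genes most like each of 6 members. From each list it took up to 4 called genes per comparison with the greatest change and 5 CPM or more on average in the higher group. For list genes the calls given are those with the inhibitor, with the mean of both siRNAs and in the difference between both responses. The ratio of CTGF to CYR61 and the remarks on NOV and WISP1 were chosen after their values were seen.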

Additional observations from a re-analysis of the deposited data

Results flagged for a closer look

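The response of 3 genes differed between NRAS knockdown and ERK inhibition by the quasi-likelihood test of edgeR on the difference itself. WWTR1 had a mean siRNA response minus inhibitor response of 0.80 on the log2 scale (SE 0.12, adjusted p = 0.00668), CTGF of -1.29 (SE 0.29, adjusted p = 0.0289) and AMOTL2 of -0.95 (SE 0.17, adjusted p = 0.0115). For WWTR1 all 4 knockdown libraries were above their 2 controls and both inhibitor libraries were below theirs. For CTGF and AMOTL2 the knockdown libraries overlapped their controls and both inhibitor libraries were above theirs. Over all genes, 16.2% lay wholly above the controls with both siRNAs. With the inhibitor 33.9% lay wholly below and 32.8% wholly above. Treatment time and transfection differ together with the target, and cannot be told apart.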

How the results depend on the processing

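Of 1180 log2 values of the 10 genes under the alternatives, 1125 kept their direction and 55 reversed, and none of the reversed ones was called. Reversals without leaving out a library were TEAD2 with the inhibitor (0.0009 with DESeq2 size factors, 0.0439 with upper-quartile scaling, 0.0048 with no filter, 0.0030 with at least 1 CPM in 4 libraries), ANKRD1 with the inhibitor (0.0342 with upper-quartile scaling) and TEAD4 between the siRNAs (0.0009 with DESeq2 size factors, 0.0013 with the DESeq2 test, 0.0002 with only the groups compared). The DESeq2 test called 1 of the 10 genes with siRNA 1, 2 with siRNA 2, 3 with their mean and 1 between the controls, and 757, 1626, 139 and 361 of all genes with siRNA 1, with siRNA 2, between the siRNAs and between the controls. With no filter it was 1, 3 and 3 of the 10 genes with siRNA 1, siRNA 2 and their mean, and 785, 1690, 1765 and 283 of all genes for these and between the controls. Fits of only the groups compared called 45, 225, 425, 28 and 12 genes with siRNA 1, siRNA 2, their mean, between the siRNAs and between the controls. The replicate block called 3, 4, 4 and 1 of the 10 genes with siRNA 1, siRNA 2, their mean and between the controls, and 1280, 2815, 2846, 446, 120 and 2379 of all genes for these, between the siRNAs and in the interaction. With the block TEAD2 and TEAD4 were among the genes called with each siRNA and their mean, and TEAD4 with the inhibitor. The labels do not say what a replicate number shares. Deviations of same-numbered libraries correlated at 0.0737 to 0.448, over 0.1 in 9 of 10 pairs of groups, a hint from the data of a shared replicate effect, which the design does not state and 2 pairs a comparison cannot settle.

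Leaving out 1 library gave 0 to 1, 0 to 2 and 0 to 2 of the 10 genes with siRNA 1, siRNA 2 and their mean, 3 to 4 with the inhibitor and 2 to 4 in the interaction. Over all genes it gave 28 to 374, 53 to 1144, 131 to 1491, 1875 to 4392, 6 to 54, 343 to 915 and 6 to 31 called with siRNA 1, siRNA 2, their mean, the inhibitor, between the siRNAs, in the interaction and between the controls. The log2 values that changed sign then ranged, with siRNA 1, from -0.1728 to 0.1424 (TEAD1), -0.4905 to 0.1242 (CTGF), -1.3398 to 0.0148 (ANKRD1) and -0.1141 to 0.1397 (AMOTL2). With siRNA 2 they ranged from -0.2699 to 0.0535 (TEAD1), -0.4699 to 0.0436 (CTGF), -0.892 to 0.1588 (ANKRD1) and -0.2869 to 0.0637 (AMOTL2). With the mean they ranged from -0.0858 to 0.03 (YAP1), -0.2213 to 0.098 (TEAD1) and -0.1343 to 0.0411 (AMOTL2). With the inhibitor they ranged from -0.0004 to 0.2273 (TEAD1), -0.0261 to 0.0096 (TEAD2), -0.3269 to 0.1421 (CYR61) and -0.727 to 0.4511 (ANKRD1). Between the siRNAs they ranged from -0.0132 to 0.1846 (TEAD1), -0.0191 to 0.1301 (TEAD2), -0.0613 to 0.1258 (TEAD3), -0.196 to 0.2144 (TEAD4), -0.2998 to 0.3192 (CTGF), -0.0449 to 0.6369 (CYR61), -1.0638 to 0.3821 (ANKRD1) and -0.0452 to 0.3052 (AMOTL2). In the interaction they ranged from -0.2016 to 0.109 (TEAD4) and -0.8441 to 0.3343 (ANKRD1), and between the controls from -0.2851 to 0.0538 (TEAD1) and -0.1126 to 0.1004 (TEAD2). The causes were not tested. CYR61 was called with siRNA 1 under 5 of 17 alternatives and WWTR1 with siRNA 2 under 5 of 17. With 2 libraries a group, differences of ANKRD1 below its wide spread were not detectable. The alternatives for the other gene lists were chosen after seeing the data.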
